A study of Mus musculus with 18 samples.

Results

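Regions of the mouse cortex that carried H3K27ac and H3K4me1 without RNA polymerase II were described from ChIP-seq peak lists. The chromatin came from frozen cerebral cortices of 3 wild-type mice (C57BL/6J, female, 14 weeks old), called animals 5, 7 and 9, and the labels give no treatment. Each animal was profiled with antibodies to MBD3, TDG, H3K27ac, H3K4me1 and RNA polymerase II phosphorylated at serine 5 of its C-terminal repeat (PolII_S5P). The 3 input samples were not analysed here.

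The sites were chosen by the peaks of 3 antibodies. Overlapping H3K27ac peaks of the 3 libraries were merged, and a region was kept when it was under 5000 bp, had H3K27ac and H3K4me1 peaks from at least 2 libraries each, and had no PolII_S5P peak in any library. Of 83349 merged regions on chromosomes 1 to 19, 10760 (12.9%) met all criteria, and they are called H3K27ac/H3K4me1 sites below. Stepwise, 81896 regions were under 5000 bp, 51119 of these had H3K27ac in at least 2 libraries, 13552 of these had H3K4me1 in at least 2, and PolII_S5P removed 2792. Because H3K27ac, H3K4me1 and PolII_S5P chose the sites, their values are given as description only, while MBD3 and TDG were not used in the choice.

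H3K4me1 is a histone mark laid down at enhancers before and during their activity, and H3K27ac, added by the acetyltransferases CBP and p300, separates active enhancers from primed ones. Active promoters also carry H3K27ac but are usually low in H3K4me1, and polymerase phosphorylated at serine 5 accumulates near transcription start sites. MBD3 is a core subunit of NuRD, a complex that joins nucleosome remodelling to histone deacetylation and can act on H3K27ac at enhancers. TDG is a DNA glycosylase that removes oxidized forms of methylcytosine during active demethylation. Cerebral cortex is a mixture of neurons, glia and vascular cells, so a weak peak from all cells and a strong peak from a few cells cannot be told apart here. Positions are on the build mm39. Whether a site lies at a gene's promoter, and whether marker genes fit the tissue label, was not tested, since no annotation of that build was used.

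The libraries differed in the number of peaks, and the read depth is unknown. On chromosomes 1 to 19, animals 5, 7 and 9 had 56738, 61187 and 38821 MBD3 peaks, 125, 240 and 934 TDG peaks, 66055, 67877 and 57846 H3K27ac peaks, 33744, 45575 and 22555 H3K4me1 peaks, and 4351, 19509 and 12526 PolII_S5P peaks. Animal 9 thus had the fewest peaks for both histone marks and MBD3 but the most for TDG, and animal 5 had few PolII_S5P peaks. The requirement of at least 2 libraries, and of no PolII_S5P peak, rests on lists of unequal length.

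MBD3 peaks lay at about as many H3K27ac/H3K4me1 sites as not. In animals 5, 7 and 9, MBD3 was at 55.4%, 61.2% and 44.6% of the sites, against 40.7%, 43.3% and 30.5% of all merged H3K27ac regions. All merged regions were narrower (median 650 bp, against 1356 bp for the sites). H3K27ac was in all 3 libraries at 43.5% of them and at 79.7% of the sites. The 2 sets were not compared at equal width or equal H3K27ac. The order of the animals, 7 above 5 above 9, followed the length of their MBD3 lists. The mean share was 53.8 ± 8.45% (SD, n = 3). MBD3 was called in all 3 animals at 4125 sites (38.3%), in 2 at 1711, in 1 at 1557 and in none at 3367 (31.3%). Of the sites, 54.2% had MBD3 in at least 2 animals, against 38.6% of all merged regions, and the figure for 3 animals was 27.3% of all merged regions. Where only 1 or 2 animals had the peak, animals 5 and 7 together were the most frequent combination (1205 sites), while animals 7 and 9 shared 338 and animals 5 and 9 shared 168.

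The comparison classes were both under 5000 bp with H3K27ac from at least 2 libraries. Polymerase-bound sites, 6061 in number, had PolII_S5P in at least 2 libraries whatever their H3K4me1. Acetylated-only sites, 21088 in number, had neither PolII_S5P nor H3K4me1 in any library. MBD3 was at 53.8 ± 8.45% of H3K27ac/H3K4me1 sites and at 85.2 ± 8.69% of polymerase-bound sites (SD, n = 3). The differences within a library were -34.2, -29.6 and -30.6 percentage points in animals 5, 7 and 9 (mean -31.5 ± 2.43). The exact sign-flip permutation test over animals, two-sided, gave p = 0.25, the smallest that 3 animals allow. Over the 13 differences tested in this way the smallest Benjamini-Hochberg adjusted exact p was 0.271, and none could pass 0.05. This gap exceeded the spread between animals and was -29.4 points within classes of equal width. It narrowed to -18.8 points when the polymerase-bound class needed only 1 library of each factor.

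Compared with acetylated-only sites, MBD3 was more frequent at H3K27ac/H3K4me1 sites, and the gap was small once width was held. The shares were 55.4%, 61.2% and 44.6% at H3K27ac/H3K4me1 sites and 41.7%, 43.9% and 29.1% at acetylated-only sites, a difference of 15.5 ± 1.81 points (SD, n = 3, exact sign-flip p = 0.25). The H3K27ac/H3K4me1 sites had a median width of 1356 bp, against 783 bp for acetylated-only sites. A wider region has more room to overlap a peak, and how much of the difference came from such room was not tested. Within 5 classes of width the difference was 0.411, 4.80 and 3.47 points (mean 2.90 ± 2.25), and with classes of H3K27ac fold enrichment added it was -0.620 in animal 5, 4.92 in animal 7 and 3.67 in animal 9, a setting added after the values were seen. It was 9.19 points when MBD3 was sought only in 500 bp around the H3K27ac summit, and 28.5 points when acetylated-only sites needed only 1 H3K27ac library.

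**Figure D1:**
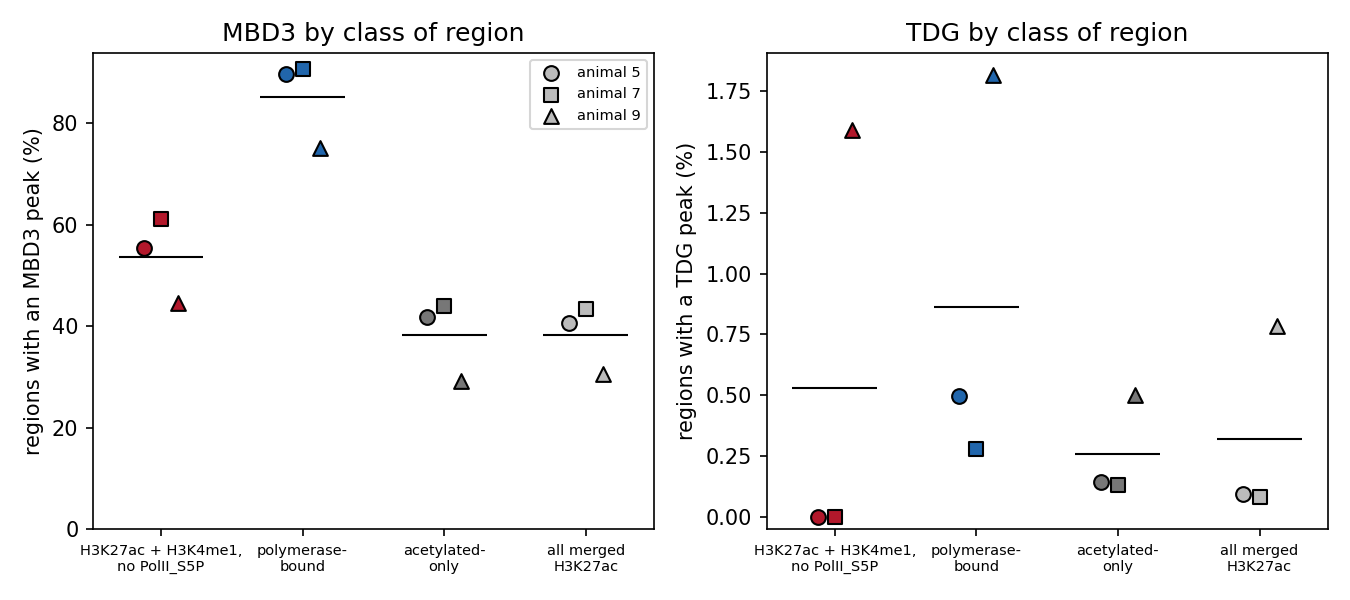
Share of regions with an MBD3 peak (left) or a TDG peak (right), in percent, for H3K27ac/H3K4me1 sites, polymerase-bound sites, acetylated-only sites and all merged H3K27ac regions. Circles, squares and triangles are animals 5, 7 and 9, and lines are means over the 3 animals. MBD3 at H3K27ac/H3K4me1 sites (44.6 to 61.2%) lies below polymerase-bound sites and above acetylated-only sites in each animal, and TDG is at 0 there in animals 5 and 7.

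Read as a series over the number of H3K4me1 libraries, from 0 to 3, MBD3 went up with H3K4me1 while the sites became wider. Among regions with H3K27ac in at least 2 libraries and no PolII_S5P, MBD3 was at 38.3%, 44.0%, 49.7% and 58.7% of those with H3K4me1 in 0, 1, 2 and 3 libraries (means of 3 animals), and their median widths were 783, 963, 1185 and 1601 bp. Averaged over the 5 width classes, the same series was 50.9%, 52.9%, 53.2% and 54.9%, with an SD over animals of 8.28 to 8.71. Within an animal, the averaged share was higher with 3 libraries than with 0 by 1.06, 6.41 and 4.46 points in animals 5, 7 and 9 (mean 3.98 ± 2.71, SD, n = 3), a change added after the values were seen and not tested. Each step went up in animals 7 and 9, while animal 5 was near level at 55.1%, 55.3%, 55.3% and 56.1%.

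Among the sites themselves, H3K4me1 in 3 or in 2 libraries made a small difference to MBD3 once width was held. Sites with H3K4me1 in all 3 libraries (4829) had MBD3 at 58.7 ± 8.71% and those with 2 libraries (5931) at 49.7 ± 8.26% (SD, n = 3). The difference of 9.04 ± 0.729 points (exact sign-flip p = 0.25) was 1.69 points within width classes and 3.94 points with peaks limited to a −log10 q of at least 5. Most sites of the 2-library kind lacked the peak in animal 9 (61.7%), whose H3K4me1 list was the shortest.

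MBD3 was more frequent where H3K27ac was reproducible, also when averaged over width classes. Sites with H3K27ac in all 3 libraries (8579) had MBD3 at 62.2%, 67.8% and 50.6% in animals 5, 7 and 9, and the 2181 sites with 2 libraries had it at 28.9%, 35.4% and 20.9%. The difference of 31.8 ± 1.83 points (exact sign-flip p = 0.25) was 16.4 ± 0.375 points within width classes. Each of the 5 width classes counted equally in that value. In the widest class 99.8% of the 2149 sites had H3K27ac in 3 libraries, and in the next 97.9% of 2154. Few sites with 2 libraries thus stood behind the values of these classes. Whether the difference by H3K27ac exceeded the difference by H3K4me1 was not tested. Sites with 3 libraries of both marks (4098) reached 64.1 ± 9.11%, and sites with 2 libraries of both (1450) had 28.1 ± 7.69% (SD, n = 3).

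The widest sites had MBD3 in most cases and the narrowest seldom. Site widths ran from 271 to 4999 bp, with 80% of sites between 547 and 3166 bp. In 5 width classes of nearly equal number, cut at 727, 1121, 1628 and 2413 bp, MBD3 was at 25.6%, 38.2%, 54.1%, 67.2% and 83.8% of sites (means of 3 animals), and it went up from class to class in every animal. Between the widest and the narrowest class the difference was 60.5, 56.8 and 57.2 points (mean 58.2 ± 2.07, exact sign-flip p = 0.25). With MBD3 sought only in 500 bp around the H3K27ac summit, it was 40.4 points. The widest class also had higher median H3K27ac folds (5.73, 5.83 and 5.49 in animals 5, 7 and 9) than the narrowest (3.66, 3.64 and 3.88). How much of the difference came from room to overlap a peak, or from H3K27ac, was not tested. Polymerase-bound sites had MBD3 at 93.9% in the widest class and 67.5% in the narrowest.

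**Figure D2:**
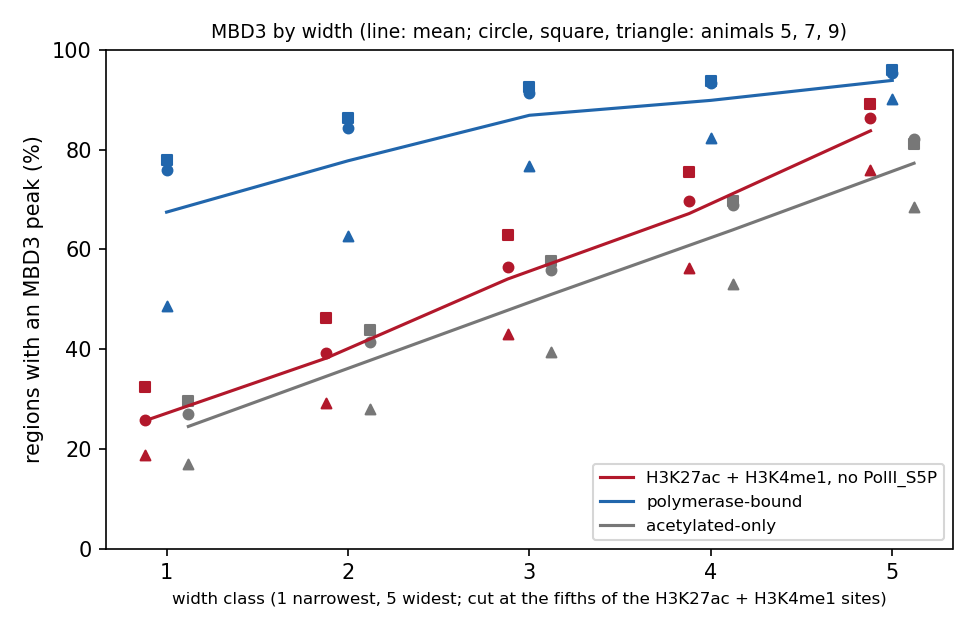
Share of regions with an MBD3 peak, in percent, in 5 width classes cut at the widths that divide the H3K27ac/H3K4me1 sites into equal numbers. Lines are means and symbols single animals. H3K27ac/H3K4me1 sites (25.6 to 83.8%) stay close to acetylated-only sites (24.5 to 77.3%) and below polymerase-bound sites (67.5 to 93.9%).

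MBD3 was also more frequent at sites with stronger H3K27ac, at equal width too. H3K27ac strength is the fold enrichment that the authors deposited, ranked within each library. MBD3 was at 79.3%, 83.0% and 68.5% of the sites in the strongest of 5 classes by H3K27ac fold in the same animal, against 45.1%, 48.3% and 37.4% in the weakest. The median widths of these classes were 2301, 2249 and 2315 bp for the strongest and 1003, 979 and 1163 bp for the weakest. The difference of 33.4 ± 1.94 points (exact sign-flip p = 0.25) was 13.7 ± 2.62 points within width classes. Among sites of the middle width class alone, MBD3 was at 71.7%, 73.5% and 57.3% in the strongest class and at 55.4%, 59.9% and 39.0% in the weakest, and the classes between them did not follow an even course.

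Distance to polymerase ran the other way, since MBD3 was least frequent at the sites nearest to PolII_S5P. The sites lay a median of 24848 bp from the nearest PolII_S5P peak of any library. Of them, 489 (4.54%) were within 1 kb, 3311 (30.8%) within 10 kb and 2019 (18.8%) beyond 100 kb. In classes of up to 1 kb, 1 to 10 kb, 10 to 30 kb, 30 to 100 kb and over 100 kb, MBD3 was at 34.7%, 42.4%, 53.2%, 60.3% and 65.4% of sites, and it increased with each step in every animal.

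Sites within 10 kb of PolII_S5P had MBD3 at 42.8%, 47.6% and 33.5% in animals 5, 7 and 9, against 67.1%, 73.0% and 56.2% of sites beyond 100 kb. The difference was -24.1 ± 1.39 points (SD, n = 3, exact sign-flip p = 0.25) and -21.8 ± 1.11 within width classes. The near sites were somewhat narrower (median 1210 bp, against 1370 bp beyond 100 kb), and H3K27ac fold enrichment was lower at sites 1 to 10 kb away (medians 4.15, 4.17 and 4.26) than beyond 100 kb (4.66, 4.77 and 4.74). Their part in the difference, beyond width, was not tested. Acetylated-only sites showed far less of this course, with 38.6%, 40.4% and 23.8% within 10 kb and 38.7%, 42.3% and 29.1% beyond 100 kb, a difference of -2.44 ± 2.63 points. Subtracting the acetylated-only difference from that of the H3K27ac/H3K4me1 sites gave -24.1, -23.5 and -17.4 points (mean -21.7 ± 3.74, exact sign-flip p = 0.25), or -17.6 ± 3.87 within width classes. This last comparison was added after the values were seen.

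**Figure D3:**
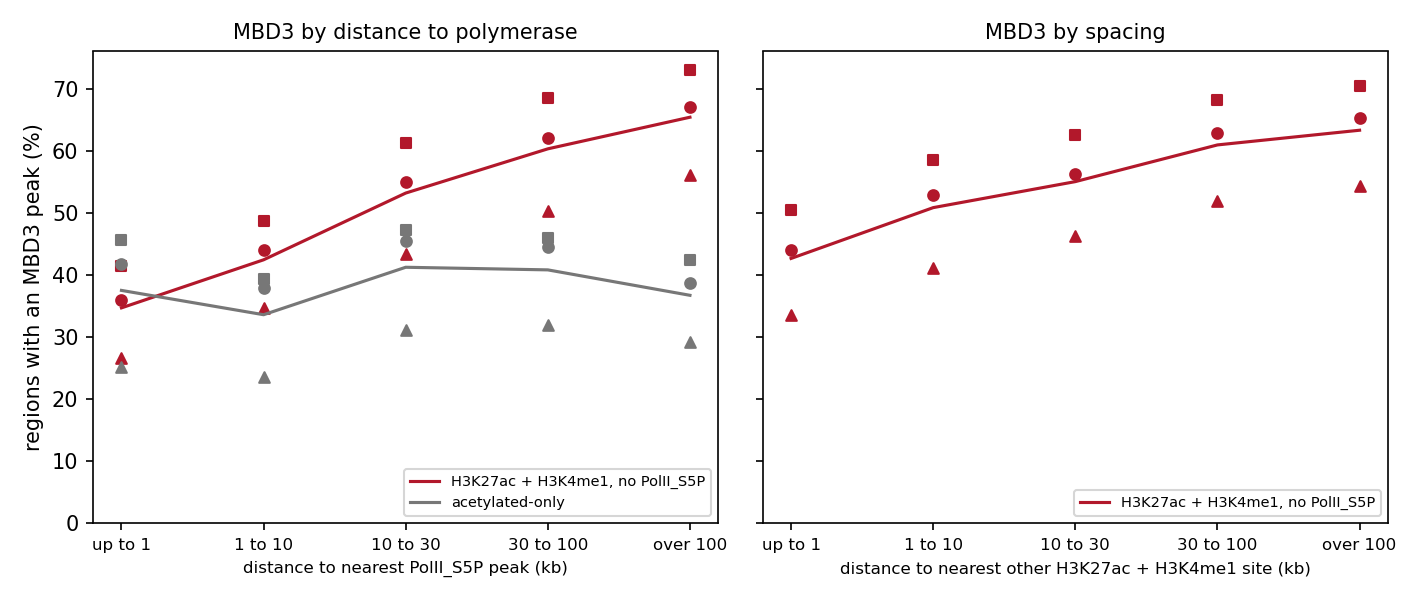
Share of regions with an MBD3 peak, in percent, by distance in kb to the nearest PolII_S5P peak (left, H3K27ac/H3K4me1 sites and acetylated-only sites) and to the nearest other H3K27ac/H3K4me1 site (right). Lines are means and circles, squares and triangles are animals 5, 7 and 9. From the nearest to the farthest class the mean goes up to 65.4% on the left and 63.3% on the right for H3K27ac/H3K4me1 sites.

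At the polymerase limit itself the order was different. Among regions that met every other criterion, those with PolII_S5P in 0, 1, 2 and 3 libraries numbered 10760, 1538, 852 and 402, and MBD3 was at 53.8%, 62.7%, 69.5% and 73.5% of them. Regions that overlapped a PolII_S5P peak thus had more MBD3 than the sites, while sites within 1 kb of such a peak had less than the sites farther away. Regions with polymerase in 0 to 3 libraries also had median widths of 1356, 1735, 1935 and 2027 bp. The PolII_S5P list of animal 5 put the nearest peak at a median of 217467 bp from the sites, against 30593 bp for animal 7 and 52028 bp for animal 9, so the distance classes rest mainly on the lists of animals 7 and 9.

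The sites lay in groups along the chromosomes. The nearest other site was a median of 11831 bp away, and 5064 sites (47.1%) had another within 10 kb. Of all sites, 2030 (18.9%) had another within 1 kb. The share with another within 10 kb depended on how peaks were merged, and was 36.0% with H3K27ac peaks within 500 bp merged. Joined across gaps of up to 10 kb, the sites formed 1865 groups of at least 2, of which 162 held at least 5 sites and 1000 sites in all, while 5696 sites stood alone. The nearest merged H3K27ac region of any kind was itself such a site for 22.2% of sites, while such sites make up 12.9% of all merged regions. For polymerase-bound sites it was such a site in 8.83% of cases, and for acetylated-only sites in 9.29%. Neighbours of the same class were frequent in the comparison classes too. The nearest region was polymerase-bound for 19.1% of polymerase-bound sites, a class of 7.27% of all merged regions. It was acetylated-only for 36.2% of acetylated-only sites, a class of 25.3%. The H3K27ac/H3K4me1 sites made up from 10.1% of merged regions on chromosome 17 to 15.4% on chromosome 18. On chromosome X, not part of the set, only 19 of 1185 merged regions (1.60%) met the criteria, and the H3K4me1 lists held 85, 131 and 49 peaks there.

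Grouped sites had less MBD3 than those standing alone. MBD3 was at 49.3%, 55.3% and 38.1% of sites with another within 10 kb and at 60.9%, 66.5% and 50.3% of sites without. The difference of -11.7 ± 0.479 points (SD, n = 3, exact sign-flip p = 0.25) was -12.1 points within width classes. The sites were also divided by both distances at once. MBD3 was at 37.5% of the 1841 sites with both another site and PolII_S5P within 10 kb, 53.3% of the 3223 with another site only, 46.0% of the 1470 with PolII_S5P only, and 63.9% of the 4226 with neither (means of 3 animals).

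The densest window of 100 kb held 17 sites on chromosome 15 between 27461536 and 27551689, at 354 to 3922 bp in width. Of these sites, 9, 10 and 9 had MBD3 in animals 5, 7 and 9, and 1 had TDG, in animal 9. PolII_S5P peaks lay between the sites, 1 in animal 5 and 7 each in animals 7 and 9. A window with as many sites, on chromosome 3 between 55158047 and 55251242, had MBD3 at 5, 7 and 2 of its 17 sites. The next, on chromosome 1 between 64081255 and 64151059, had it at 5, 5 and 2 of 16. In the windows on chromosomes 3 and 1 MBD3 was thus less frequent than over all sites, in each animal, and PolII_S5P peaks lay in them too (2 each in animals 7 and 9 on chromosome 3, 4 and 2 on chromosome 1).

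**Figure D4:**
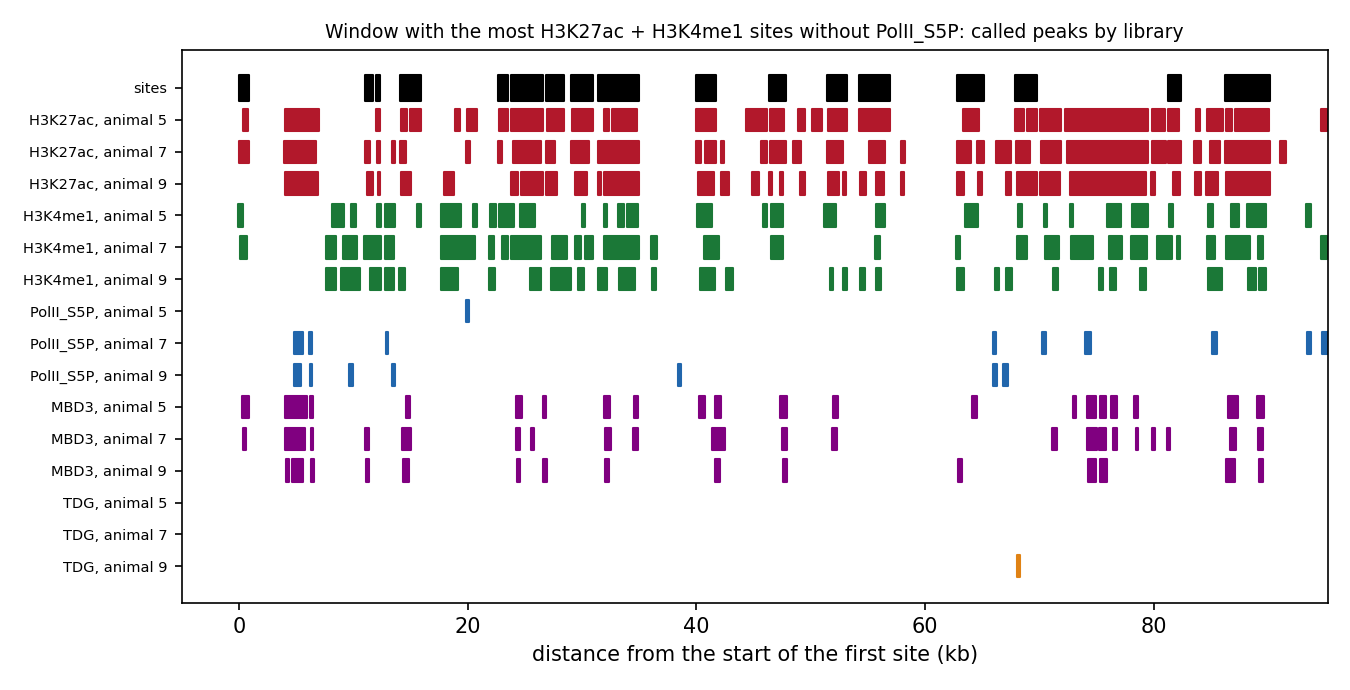
Called peaks of the 15 libraries in the window on chromosome 15 with 17 H3K27ac/H3K4me1 sites, by distance in kb from the start of the first site. Each bar is a peak or, in the top row, a site, and each row a library. MBD3 peaks overlap 9 or 10 of the 17 sites per animal, and by the choice of sites no PolII_S5P peak overlaps any.

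Within the sites, H3K4me1 peaked closer to the H3K27ac summit than at polymerase-bound sites. Summits are those of the strongest overlapping peak of the same animal. The H3K4me1 summit was within 250 bp of the H3K27ac summit at 50.7%, 49.3% and 47.7% of H3K27ac/H3K4me1 sites, against 22.3%, 21.9% and 28.1% of polymerase-bound sites with both marks. The median distance was 257 ± 14.5 bp at H3K27ac/H3K4me1 sites and 783 ± 58.9 bp at polymerase-bound sites (SD, n = 3). These values describe marks that chose the sites and were not tested. The regions with both marks differed in width. Their medians in animals 5, 7 and 9 were 1486, 1420 and 1493 bp at H3K27ac/H3K4me1 sites. At polymerase-bound sites they were 1981, 1940 and 2020.5 bp. The H3K4me1 distances were not compared at equal width.

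MBD3 peaks were broader and more centred at polymerase-bound sites than at H3K27ac/H3K4me1 sites. Their median width was 986, 960 and 550 bp at polymerase-bound sites and 466, 479 and 407 bp at H3K27ac/H3K4me1 sites. The latter were near the medians of all MBD3 peaks (456, 444 and 388 bp). At acetylated-only sites the median width was 568, 550 and 428.5 bp. MBD3 peaks covered 19.2 ± 5.08% of the bases of all H3K27ac/H3K4me1 sites and 46.5 ± 15.1% of those of polymerase-bound sites (SD, n = 3). Regions without MBD3 count in these shares, so they also reflect how often MBD3 was called. Where MBD3 was present, it covered a median of 30.5%, 32.1% and 23.8% of a H3K27ac/H3K4me1 site in animals 5, 7 and 9. For polymerase-bound sites this was 65.1%, 64.4% and 36.2%. The MBD3 summit was within 250 bp of the H3K27ac summit at 37.2 ± 3.33% of H3K27ac/H3K4me1 sites with both peaks, against 51.5 ± 1.81% of polymerase-bound sites. The differences of -14.4 ± 1.59 points in centring, -27.3 ± 10.3 points in covered bases and -381 ± 207 bp in peak width each had an exact sign-flip p = 0.25 and the same sign in all 3 animals, and these tests were added after the values were seen. In the narrowest width class the share within 250 bp was 56.9% at H3K27ac/H3K4me1 sites and 66.9% at polymerase-bound sites, and in the widest it was 25.8% and 30.6%. At acetylated-only sites it was 54.6% in the narrowest class, 25.7% in the widest and 44.6 ± 2.39% over all widths. MBD3 peaks covered 20.2 ± 6.70% of the bases of acetylated-only sites (SD, n = 3), with medians of 44.5%, 43.8% and 32.0% where MBD3 was present. Covered bases were not compared at equal width. MBD3 stood nearer to the H3K27ac summit than to the H3K4me1 summit at 59.3%, 60.9% and 60.6% of H3K27ac/H3K4me1 sites with all 3 peaks in an animal.

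**Figure D5:**
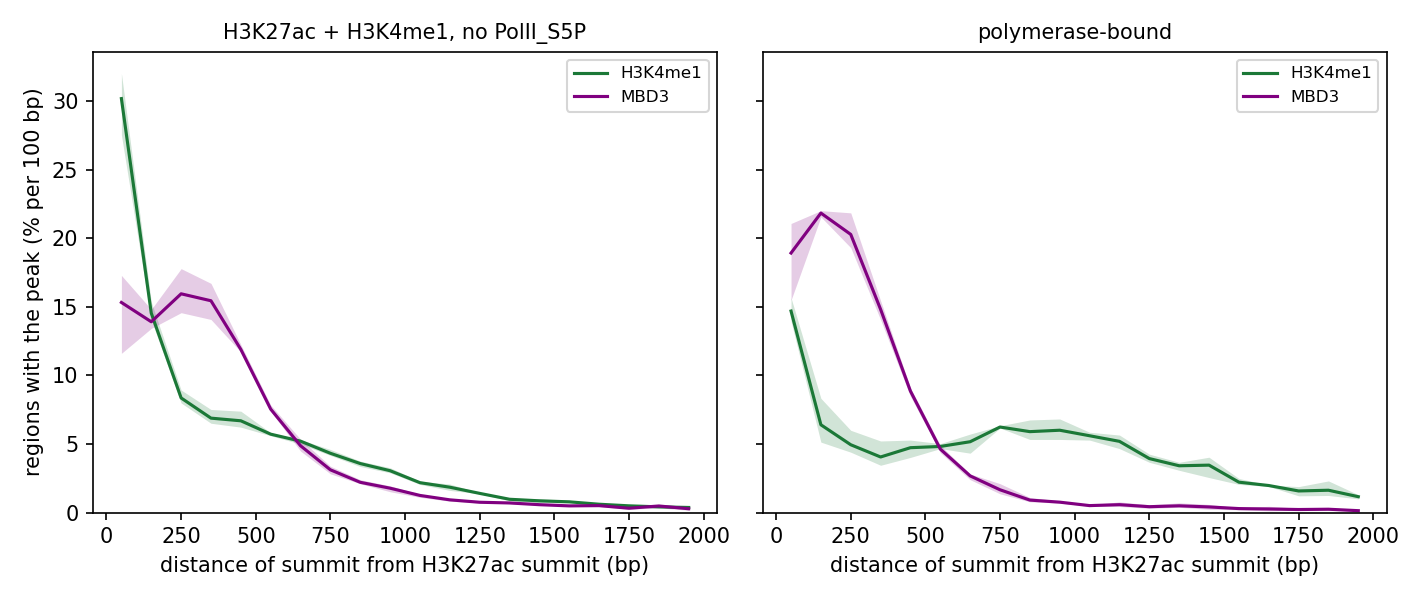
Distance in bp of the H3K4me1 and MBD3 summits from the H3K27ac summit of the same animal, as percent of regions per 100 bp, for H3K27ac/H3K4me1 sites (left) and polymerase-bound sites (right). Lines are means of 3 animals and bands their range. H3K4me1 is concentrated at the H3K27ac summit in H3K27ac/H3K4me1 sites (median distance 257 bp) and spread farther out at polymerase-bound sites (783 bp).

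MBD3 at the sites ranked at a similar height in each animal's own list, while at polymerase-bound sites animal 9 stood apart. The median fold enrichment of MBD3 stood at the percentile 62.5, 64.2 and 69.7 of its own list at H3K27ac/H3K4me1 sites, at 74.5, 72.0 and 37.2 at polymerase-bound sites, and at 58.6, 57.2 and 51.6 at acetylated-only sites. The difference from polymerase-bound sites was therefore -12.0, -7.83 and 32.5 percentile points, with 1 sign in animals 5 and 7 and the other in animal 9 (exact sign-flip p = 1). H3K27ac in animal 9 stood at the percentile 64.8 at polymerase-bound sites, against 83.8 and 81.0 in animals 5 and 7, and at 69.0 at H3K27ac/H3K4me1 sites, against 66.0 and 66.6. Across the 4125 sites with MBD3 in every animal, the MBD3 folds of 2 animals had a Spearman rho of 0.668 to 0.738, a description over sites of shared libraries. With the H3K27ac fold of the same animal rho was 0.237 to 0.252.

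The 6 sites of strongest MBD3 had H3K27ac folds of 5.54 to 14.9, above the medians of 4.33, 4.37 and 4.45 over all sites. They lay on chromosome 11 at 46321490 to 46322215 (MBD3 fold enrichments of 38.8, 43.3 and 31.8 in animals 5, 7 and 9), chromosome 14 at 29199706 to 29201342 (36.9, 39.1 and 33.3) and chromosome 10 at 6884432 to 6887728 (41.5, 39.1 and 30.3). The others lay on chromosome 13 at 76407333 to 76408573 (40.6, 34.4 and 30.3, with H3K27ac folds of 14.6, 14.9 and 11.2), chromosome 14 at 71966339 to 71966934 (29.1, 39.5 and 30.8) and chromosome 3 at 28603743 to 28606683 (34.5, 29.3 and 34.1). The median MBD3 fold over sites was 6.92, 6.72 and 7.11. The site at 71966339 was only 596 bp wide and 739622 bp from the nearest PolII_S5P peak, and the site at 29199706 was 2622 bp from such a peak.

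The 8 sites of strongest H3K27ac had fold enrichments of 14.2 to 20.6, well above those medians. The first by rank, on chromosome 13 at 101028481 to 101031662, had folds of 18.8, 19.5 and 16.6 and MBD3 folds of 13.8, 14.2 and 6.74. It was followed by chromosome 2 at 62458264 to 62459863 (H3K27ac folds of 18.3, 17.9 and 15.1), chromosome 11 at 78592630 to 78595453 (15.3, 20.6 and 15.5) and chromosome 18 at 85171059 to 85175240 (15.4, 19.4 and 15.5). The remaining ones lay on chromosome 9 at 27090533 to 27093976, chromosome 5 at 20507963 to 20509239, chromosome 1 at 60898570 to 60900960 and chromosome 2 at 148001365 to 148005686. MBD3 was called in all 3 animals at 7 of the 8, and at the chromosome 1 site in animals 5 and 7. Over all sites, 38.3% had MBD3 in all 3 animals. The 8 sites were 1277 to 4322 bp wide and chosen for strong H3K27ac, and MBD3 was more frequent at wide and at strongly acetylated sites in general.

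Strong acetylation without any MBD3 call also occurred. The 4 sites of best H3K27ac rank that had no MBD3 peak in any animal lay on chromosome 5 at 107563102 to 107564994 (H3K27ac folds of 11.5, 13.5 and 13.4), chromosome 19 at 22901670 to 22903517 (13.3, 13.3 and 10.3), chromosome 16 at 38758988 to 38761929 (9.79, 13.3 and 10.3) and chromosome 1 at 81155790 to 81159925 (10.5, 10.3 and 10.8). They were 1848 to 4136 bp wide, in a range where most sites had MBD3.

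The width limit of 5000 bp did not mark a change in MBD3. Regions of 4500 to 5000 bp that met the other criteria (166) had MBD3 at 91.8 ± 5.94%, and those of 5000 to 5500 bp (129) at 95.9 ± 2.72% (SD, n = 3). The widest sites lay on chromosome 11 at 101880280 to 101885278 (4999 bp) and chromosome 15 at 98865561 to 98870558 (4998 bp). The narrowest regions outside lay on chromosome 7 at 16689347 to 16694348 (5002 bp) and chromosome 15 at 66141502 to 66146507 (5006 bp), and all 4 had MBD3 in every animal. At the H3K27ac limit, the 2570 regions with H3K27ac in only 1 library had a median width of 379 bp and MBD3 at 15.3 ± 4.47%, against 28.4 ± 7.26% for the 2181 sites with 2 libraries.

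TDG was not called at any H3K27ac/H3K4me1 site in animals 5 and 7, and was called at 171 sites in animal 9. The shares were 0%, 0% and 1.59%, against 0.0936%, 0.0828% and 0.786% of all merged H3K27ac regions, and 0.816% of those had TDG in at least 1 animal. All merged regions were narrower (median 650 bp, against 1356 bp for the sites), and these shares were not compared at equal width. Polymerase-bound sites had TDG at 30, 17 and 110 regions in animals 5, 7 and 9 (0.495%, 0.280% and 1.81%). Acetylated-only sites had it at 30, 28 and 106 regions (0.142%, 0.133% and 0.503%). No H3K27ac/H3K4me1 site had TDG in 2 animals. The TDG lists of animals 5 and 7 were short, and none of their peaks lay on a site, although 66.4% and 28.8% of them lay on merged H3K27ac regions.

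TDG was also counted by the number of H3K4me1 libraries, among regions under 5000 bp with H3K27ac in at least 2 libraries and no PolII_S5P. Regions with H3K4me1 in 0, 1, 2 and 3 libraries numbered 21088, 8380, 5931 and 4829. Those with 2 or 3 libraries are the H3K27ac/H3K4me1 sites themselves. With H3K4me1 in 0, 1, 2 and 3 libraries, TDG was at 30, 5, 0 and 0 regions in animal 5 and at 28, 5, 0 and 0 in animal 7, but at 106, 48, 55 and 116 in animal 9 (0.503%, 0.573%, 0.927% and 2.40%). The lack of TDG calls in animals 5 and 7 at 2 and 3 libraries is thus the result already given, not a second one. Animal 9 had its highest share at 3 libraries. Regions that met every other criterion but had PolII_S5P in 1, 2 and 3 libraries had TDG in all animals. It was at 3, 3 and 13 regions in animal 5 and at 3, 4 and 4 in animal 7. In animal 9 it was at 53, 31 and 11 of the 1538, 852 and 402 regions (3.45%, 3.64% and 2.74%). The TDG result at the H3K27ac/H3K4me1 sites rests on the library of animal 9 alone. With lists shortened to equal length its share was 0.0186%, and with peaks limited to a −log10 q of at least 5, which also changes the sites, it was 0.706%. When H3K27ac peaks within 500 bp were merged, the shares in animals 5 and 7 were 0.0110% and 0.0220%.

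The 171 sites with TDG in animal 9 were wide, strongly acetylated and rich in MBD3. They had a median width of 2008 bp and a median H3K27ac fold of 6.03 in animal 9, against 1345 bp and 4.40 for the other 10589 sites. The MBD3 peaks of animals 5, 7 and 9 overlapped 84.2%, 88.9% and 82.5% of the sites with TDG, against 55.0%, 60.8% and 44.0% of the others, so the contrast was also present in the MBD3 libraries of the animals without TDG there. Within the 5 width classes, from narrowest to widest, only 15, 13, 30, 43 and 70 sites had TDG. MBD3 of animal 9 was at 66.7%, 61.5%, 80.0%, 83.7% and 90.0% of them, against 18.4%, 28.9%, 42.4%, 55.8% and 75.4% of sites without TDG. H3K4me1 was found in all 3 libraries at 67.8% of sites with TDG and 44.5% of the others. The sites with TDG were spread over all 19 autosomes, with at most 16 on a chromosome.

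TDG peaks at the sites were not strong within the list of animal 9. Their median fold was 4.47, the same as for the peaks elsewhere, and their median −log10 q was 2.94, against 3.63 elsewhere. The strongest, chosen after the values were seen, lay on chromosome 19 at 11981035 to 11985135 (TDG fold 8.89), where MBD3 had folds of 12.1, 10.1 and 6.56. Others lay on chromosome 14 at 43153831 to 43155080 and chromosome 18 at 69638294 to 69642944, both at 7.02. The TDG summit was within 250 bp of the H3K27ac summit at 43.3% of the 164 sites where animal 9 had both, a median of 305.5 bp away.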

How the data were processed

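Frozen cerebral cortex of 3 mice gave 15 ChIP-seq libraries, and the labels tie libraries of equal number to 1 animal. The submitters' processing notes name MACS2 2.2.7.1, with Picard 2.18.29, SAMtools 1.16.1, Trim Galore 0.6.7 and bcl2fastq 2.20, and the builds mm39 and hg38. No source used here gives the aligner or the control for peak calling, which are recorded as not given. The authors deposited 1 narrowPeak list per library. Each deposited peak has a summit offset in bp, −log10 values of its p-value and q-value, a fold enrichment (a ratio over the caller's background) and a whole-number score. The score was not used. Contig names in the lists belong to mm39, and coordinates are counted from 1.

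H3K27ac peaks on chromosomes 1 to 19 that overlapped by at least 1 bp were merged, and a factor was present where its peak overlapped the merged region by at least 1 bp. Shares were computed in each MBD3 or TDG library, differences between classes of region were taken within a library, and a two-sided exact sign-flip permutation test over the 3 animals was used, whose smallest p is 0.25. Thus no difference could pass the threshold of 0.05. The tests on polymerase distance in acetylated-only sites and on the shape and rank of MBD3 peaks, and the averages over width classes among the sites or by width and H3K27ac fold together, were added after the values were seen. Regions are not replicates and carry no test of their own. Where several peaks overlapped a region, the peak of highest fold enrichment gave its fold and summit. The fold is the authors' value and ranks or describes peaks within a list only.

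The members and lists were chosen with earlier results of these data known. Named regions follow a written rule: the 8 members of best mean rank of H3K27ac fold enrichment, the 6 of best MBD3 rank, those with TDG in at least 2 libraries, the 3 densest windows of 100 kb, the members and other regions nearest the width limit, and the 4 of best H3K27ac rank without MBD3. Gene neighbours, motifs and base composition were planned. They need sequence or an annotation on mm39 and were not analysed here, so regions are named by position only. The code recovered every planted region and share in lists made for that purpose. Alternatives covered the q-value, overlap, merging, library, width and polymerase criteria, list length, a fixed window, width classes and leaving out each animal. Computation used matplotlib 3.10.9, scipy 1.17.1, pandas 2.3.3 and numpy 2.4.6 under Python 3.11.15.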

Additional observations from a re-analysis of the deposited data

How the results depend on the processing

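All 8 planned differences in MBD3 kept the direction of their mean under the alternatives run, 107 values in all (8 of them, with no replicate block, have the same mean by construction), although the difference from acetylated-only sites turned to -0.620 points in animal 5 within classes of width and H3K27ac fold. No p could pass 0.05 in this design, so a kept p says nothing about stability. Differences were taken within a library, and with no replicate block, permuting 3 shares against 3, the difference from polymerase-bound sites (-31.5 points) and from acetylated-only sites (15.5 points) had an exact permutation p of 0.1, the smallest possible. That of grouped sites had 0.2 and that of H3K4me1 in 3 or 2 libraries 0.3.

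The number of sites moved with the criteria. It was 2693 when every peak needed a −log10 q of 5 or more, 4098 with both marks in 3 libraries, and 5392 to 8319 with an animal left out, when both remaining libraries must have the marks (5889 without animal 5, 5392 without animal 7). The MBD3 share was 64.1% with both marks in 3 libraries, 43.0% with MBD3 lists of equal length, 44.4% in a window of 500 bp and 57.0% to 63.4% with an animal left out. The TDG share ranged from 0.0120% to 1.21% with an animal left out, without animal 9 at the low end. The median width was 1866 bp at the stricter q, 1429 bp with summits required inside the region, 1720.5 bp with peaks within 500 bp merged, 1809.5 bp with both marks in 3 libraries, 1210 bp under 3000 bp, and 1389 to 1557.5 bp with an animal left out. In the same order, the share of sites with another within 10 kb was 28.0%, 44.8%, 36.0%, 33.5%, 43.6% and 40.1% to 42.5%, and 45.8% with no PolII_S5P within 1000 bp. The median distance to PolII_S5P was 42739 bp at the stricter q, 30222 bp with peaks within 500 bp merged, 22987 bp with both marks in 3 libraries, 27329 bp with no PolII_S5P within 1000 bp, and 23439 to 40466 bp with an animal left out, the last without animal 7. The share of MBD3 summits within 250 bp of the H3K27ac summit was 33.6% at the stricter q and 40.6% under 3000 bp. Read depth is unknown, so a site without a peak is a site with no call, not one shown to lack the factor.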
